A study of Mus musculus with 12 samples.

Results

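The mouse small intestine is a layered tube, and RNA from a piece of it mixes epithelium with muscle, nerve, connective tissue and vessels. This account follows 33 genes that mark the non-epithelial layers: 10 genes of smooth muscle, 8 of enteric neurons and glia, 10 of fibroblasts and extracellular matrix, and 5 of endothelium. The genes were taken by symbol from a deposited table of 23284 genes. All 33 had reads in all 12 libraries and all 33 passed the filter on low counts, as did 15866 genes in all.

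The tissue was terminal ileum of 12 mice, each giving 1 RNA library, with 3 mice in each of 4 groups. Rag1-/- mice (RAG1x3163, RAG1x3164 and RAG1x3168) lack the recombinase needed for T and B cell receptor genes. Tcra-/- mice, which lack the T cell receptor alpha chain, were studied in 2 groups: co-housed with an equal number of age-matched wild type males for 4 to 8 weeks (TCRaCox3155, TCRaCox3156 and TCRaCox3157), or housed separately (TCRaSepxT2, TCRaSepxT3 and TCRaSepxT4). Wild type (WT) C57BL/6 mice (WTB6x3159, WTB6x3160 and WTB6x3167) were set against them. All mice came from Taconic and were kept specific pathogen free. Ages and sex of the sequenced mice, the number of cages per group and whether the sequenced WT mice had lived with the co-housed Tcra-/- mice were not given in the sources used here. The housing tests measure the spread among mice, which may be cage mates, and not the spread among cages.

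Smooth muscle of the gut wall contracts through actin and myosin filaments, and its gene programme is driven by serum response factor and its coactivator myocardin, which act through promoter elements called CArG boxes. The enteric nervous system lies between and beneath the muscle layers, where neurons signal through peptides and nitric oxide and are wrapped by glia. Fibroblasts lay down collagens and proteoglycans, and endothelium lines blood and lymph vessels. In a piece of whole tissue, fewer cells of a type and less RNA per cell cannot be told apart.

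Whether such boxes had a part in any group difference was not tested. The promoter of Acta2, the most abundant of the 10 smooth muscle genes, is shown as an example. It holds 2 CArG-like boxes, printed in capitals, in the 120 bases before the start site on the minus strand of chromosome 19 (RefSeq, GRCm38.p6, chr19:34255374-34255493).

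Acta2: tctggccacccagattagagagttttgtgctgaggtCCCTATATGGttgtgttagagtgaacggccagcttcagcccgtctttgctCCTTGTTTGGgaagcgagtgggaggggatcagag

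The boxes lie 84 to 75 and 34 to 25 bases before the start. Each departs from the canonical CArG box by 1 base of its A/T centre, the motif is its own reverse complement in form, and the search therefore covers both strands. Of the 10 smooth muscle genes, 6 had a promoter in the RefSeq table, and Acta2 alone among those 6 had such a box in the 250 bases before the start. Of all 32851 promoters in the table, 8.59% had such a box and 1.47% an exact one, and 0 of the 6 had an exact one.

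The libraries held 37061276 to 50581616 counted reads. Fabp6, the ileal bile acid binding protein, was at 2688 to 4109 counts per 1000000 counted reads (CPM, scaled for composition) in every library, while the colon genes Car1 and Aqp8 did not exceed 0.114 CPM in any. Car4, a carbonic anhydrase gene also listed as a marker of the colon, stood at 566 to 656 CPM in Rag1-/- mice, 431 to 663 CPM in co-housed Tcra-/- mice, 63.1 to 85.1 CPM in separately housed Tcra-/- mice and 73.6 to 128 CPM in WT mice. Cd3e, a T cell receptor complex gene, had 2 reads in Rag1-/- mice and 0.790 to 12.7 CPM in the other groups. Rag1 itself had 236 reads in Rag1-/- mice and 0 in the other 9 libraries, which does not check the label because the deleted stretch is not given. The 14 epithelial markers summed to 21292 to 23129 CPM over all libraries, with overlapping ranges in the 4 groups.

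Levels between genes were compared per length, as CPM divided by the merged exon length in kilobases (RPKM). Smooth muscle genes were the most abundant. Acta2, smooth muscle alpha actin, averaged 284 RPKM over the 12 libraries, Tagln, the actin-binding protein transgelin, 220 RPKM, and Actg2, the gamma actin of enteric muscle, 190 RPKM. Acta2 lay at the 98.2 percentile of the genes tested. At the other end of that class, Myocd, which encodes myocardin, averaged 0.631 RPKM.

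Enteric genes were low. Vip, the neuropeptide vasoactive intestinal peptide, led its class at a mean of 21.7 RPKM, followed by Uchl1, a neuronal deubiquitinase, at 4.14 RPKM. The glial transcription factor gene Sox10 averaged 0.321 RPKM and Nos1, the neuronal nitric oxide synthase gene, 0.199 RPKM, with 451 and 450 reads over all libraries. Counting error is therefore larger for these genes than for the muscle genes, and the within-group SD of log2 CPM was 0.73 for Nos1.

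Among fibroblast and matrix genes Dcn, the proteoglycan decorin, averaged 81.4 RPKM and Col3a1, the type III collagen chain, 25.7 RPKM. Among endothelial genes the leading members were Lyve1, a hyaluronan receptor of lymphatic vessels, at 4.82 RPKM and Pecam1, the junction protein CD31, at 4.20 RPKM. Cdh5 (VE-cadherin), Kdr (VEGF receptor) and Tek (angiopoietin receptor) averaged 1.00, 0.929 and 0.884 RPKM. In all, 15 of the 33 genes averaged above 10 RPKM and 7 under 1 RPKM.

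**Figure D1:**
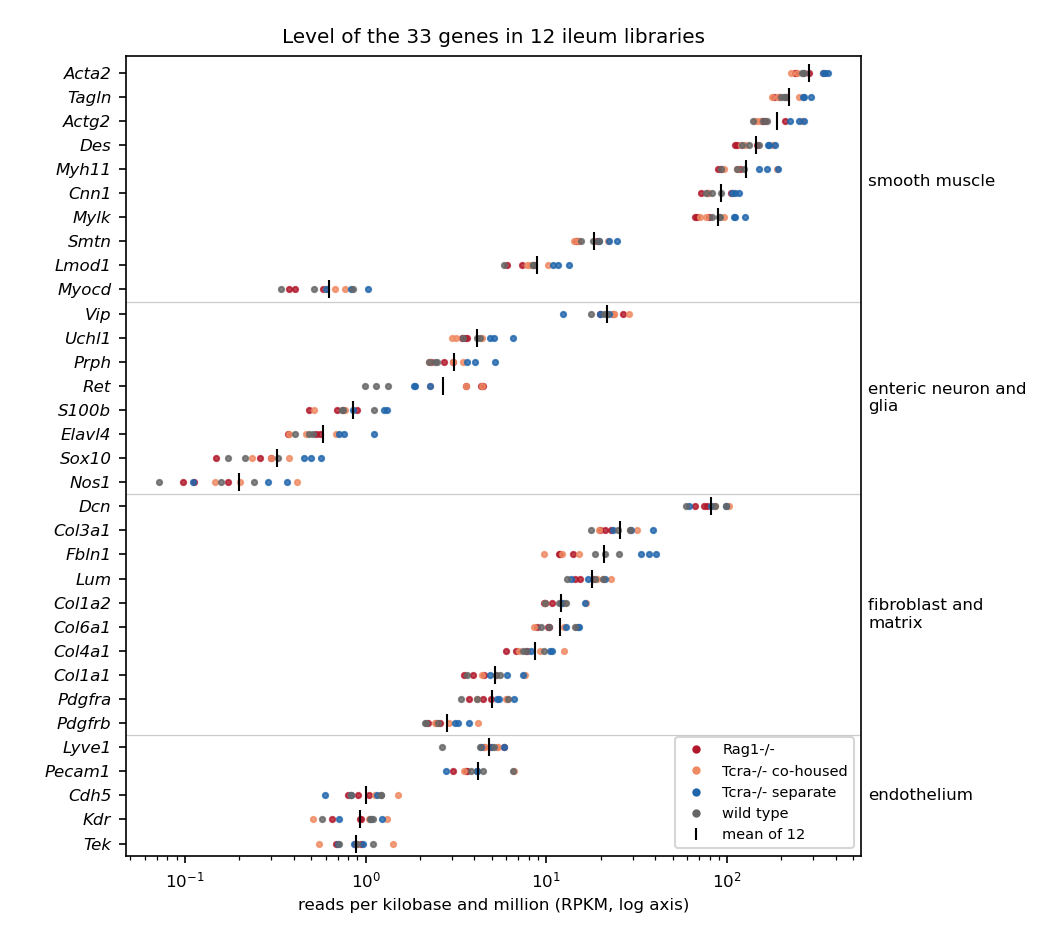
Level of each of the 33 genes in each library, in RPKM on a log axis, grouped by class, with points coloured by group and a black tick at the mean of 12 libraries. The smooth muscle genes other than Smtn, Lmod1 and Myocd average 89.0 RPKM or more, and the separately housed Tcra-/- libraries sit at the right end of most smooth muscle rows.

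A gene was called in a comparison at a Benjamini-Hochberg adjusted p under 0.01 over all genes tested (edgeR quasi-likelihood test). In Rag1-/- against WT ileum, Ret rose and Fbln1 fell, and the other 31 genes were not called. So 1 of 33 was higher and 1 of 33 lower, against 9.42% of all genes called higher and 11.5% called lower. In co-housed against separately housed Tcra-/- ileum, 1 gene was higher (Ret) and 4 were lower (Mylk, Tagln, Uchl1 and Fbln1), against 21.1% and 17.7% of all genes. In separately housed Tcra-/- against WT ileum, 4 genes were higher (Tagln, Lmod1, Prph and Fbln1) and 0 lower, against 6.06% and 7.7%. In that comparison 15 genes had an unadjusted p under 0.05 and DESeq2 called 10, with 0 lower in each case. The shares of all genes at that threshold and by DESeq2 are not given here, so these counts have nothing to be set against. In co-housed Tcra-/- against WT ileum, Ret was higher and Fbln1 lower, against 9.34% and 9.19%. Across any of the 4 groups, 7 of the 33 genes differed (Mylk, Tagln, Lmod1, Ret, Prph, Uchl1 and Fbln1), against 41.7% of all genes. Except for the genes higher in separately housed Tcra-/- than in WT mice, each share of the 33 lay below that of all genes.

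The 3 comparisons with WT share its libraries, and both that use separately housed Tcra-/- mice share theirs, so they are not independent of each other. Rag1-/- against WT, and Tcra-/- by housing, are the comparisons the study states. The count in separately housed Tcra-/- against WT mice rested on few libraries. It was 0 without TCRaSepxT4 and 0 without WTB6x3167, and 1 without TCRaSepxT3 or WTB6x3160. It was 2 without TCRaSepxT2, WTB6x3159 or RAG1x3168, and 11 without TCRaCox3157. Over all genes, 489 and 590 were higher and 786 and 893 lower without TCRaSepxT4 and WTB6x3167, against 961 and 1221 with all 12 libraries. Without TCRaSepxT3, WTB6x3160 and TCRaCox3157, 616, 651 and 1148 were higher and 905, 929 and 1306 lower. In co-housed against separately housed mice the count was 12 without TCRaCox3157, 3 without TCRaCox3156 and 2 without TCRaCox3155. Over all genes, 3223, 2863 and 2915 were higher and 2765, 2235 and 2442 lower in those runs, against 3347 and 2809 with all 12 libraries. For Rag1-/- against WT mice the count was 1 without RAG1x3163 or RAG1x3168 and 3 without TCRaCox3157. There, 1077, 1183 and 1559 of all genes were higher and 1364, 1541 and 1913 lower, against 1494 and 1820 with all 12 libraries. The count over any of the 4 groups was 14 without TCRaCox3157, 4 without TCRaSepxT2 or TCRaSepxT3, and 3 without TCRaSepxT4.

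**Figure D2:**
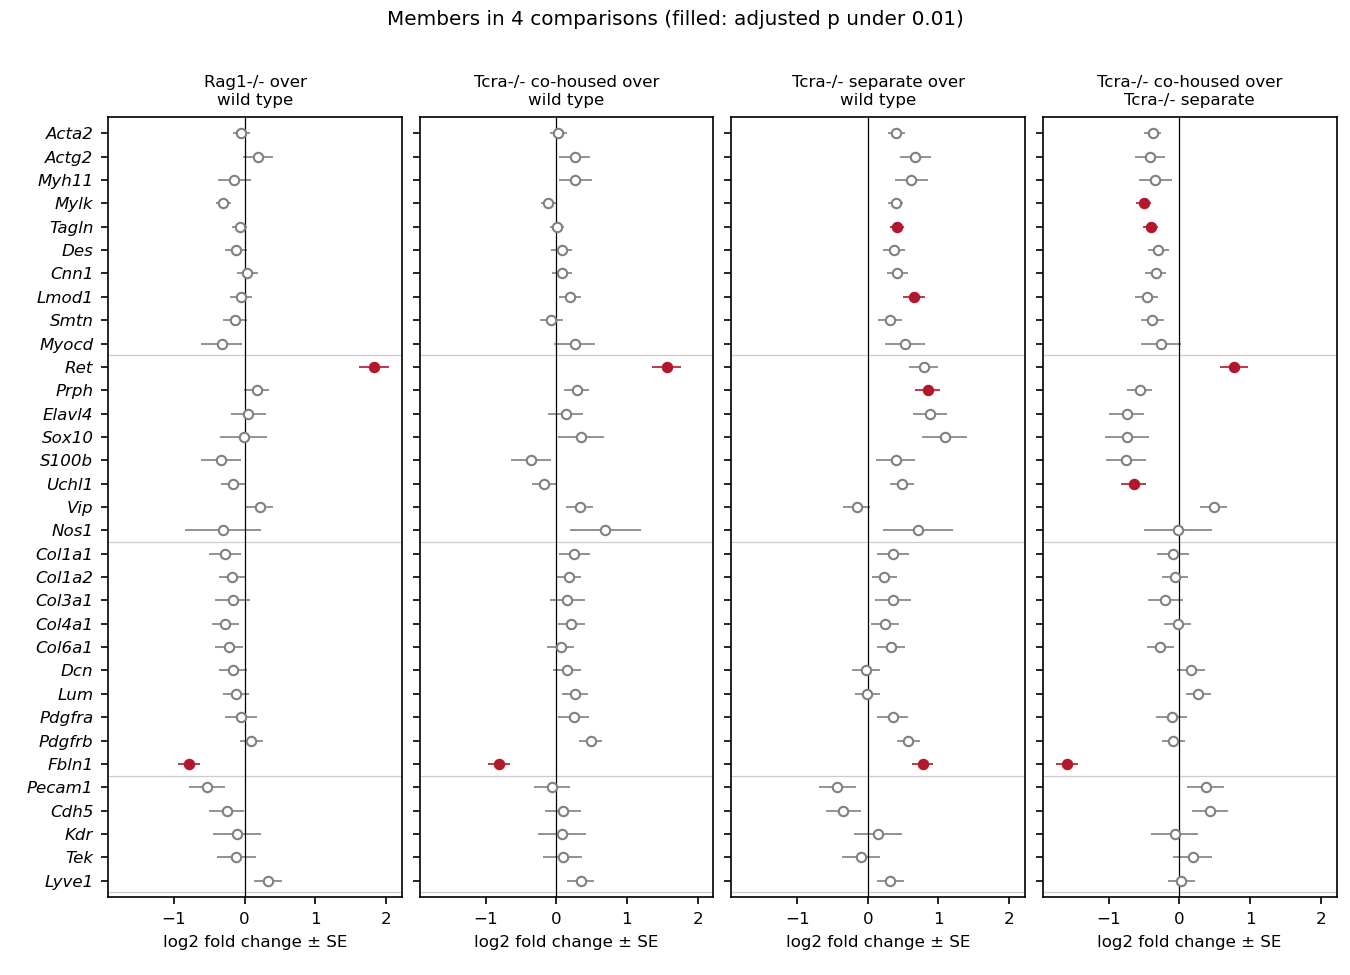
Log2 fold change of each gene in the 4 comparisons, with bars of 1 standard error (SE) and filled points for an adjusted p under 0.01. Ret and Fbln1 stand apart from the other 31 genes in Rag1-/- over WT and in co-housed Tcra-/- over WT, where Ret is at 1.83 and 1.56 and Fbln1 at -0.79 and -0.81.

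Smooth muscle genes were highest in separately housed Tcra-/- ileum. All 10 had their highest library in that group, 7 of them in TCRaSepxT4 and 3 in TCRaSepxT3. The genes moved together by library, as given below, so these are not 10 independent observations. The share of all genes with their highest library in that group was not computed. The 10 genes summed to 4001, 3983 and 4377 CPM in separately housed Tcra-/- mice, against 3080.5, 2756 and 3051 CPM in WT mice. Their sum was 3141, 2524 and 2528 CPM in Rag1-/- mice, and 2560.5, 2794 and 4070 CPM in co-housed Tcra-/- mice. Only TCRaCox3157 among the other groups reached the range of the separately housed mice. The 10 genes held 0.234 to 0.449% of all counts in a library.

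Tagln stood at 335, 287 and 307 CPM in Rag1-/- mice, 281, 304 and 397 CPM in co-housed Tcra-/- mice, 422, 460 and 418 CPM in separately housed Tcra-/- mice, and 316, 332 and 327 CPM in WT mice. The separately housed group was above every other library. Tagln rose in separately housed Tcra-/- over WT mice by a log2 fold change of 0.41 (SE 0.10, adjusted p = 0.00838), and was lower in co-housed than in separately housed Tcra-/- mice (log2 fold change -0.40, SE 0.10, adjusted p = 0.00392). The rise over WT was not called without TCRaSepxT2 (adjusted p = 0.0189), TCRaSepxT3 (0.0377), TCRaSepxT4 (0.0217), WTB6x3159 (0.0348), WTB6x3160 (0.0222), WTB6x3167 (0.0258) or RAG1x3168 (0.0121), nor with upper quartile factors (0.0151) or library size alone (0.0104), and the difference between the housing groups was not called without TCRaCox3155 (0.023), TCRaCox3156 (0.0225) or TCRaSepxT3 (0.0203), nor with the 6 libraries compared (0.0157). Tagln lies at chr9:45737711-45744141 (mm9, minus strand, 5 merged exons) and shares 95 exonic bases with Pcsk7 on the opposite strand, which had 40240 reads over all libraries against 180732 for Tagln.

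Mylk encodes the kinase that phosphorylates myosin light chain to start contraction (chr16:34785036-35002520, mm9, plus strand). Its level was 555, 597 and 754 CPM in co-housed Tcra-/- mice, against 858, 868 and 980 CPM in separately housed Tcra-/- mice. It stood at 620, 516 and 531 CPM in Rag1-/- mice and 713, 644 and 702 CPM in WT mice. The co-housed and separately housed groups did not overlap, and Mylk was lower with co-housing by a log2 fold change of -0.51 (SE 0.11, adjusted p = 0.000866), a call that held under every alternative run. In Rag1-/- against WT mice its groups did not overlap either, but the difference of -0.31 (SE 0.11) was not called (adjusted p = 0.0378).

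Lmod1, leiomodin, nucleates actin filaments in smooth muscle (chr1:137221390-137264642, mm9, plus strand). It stood at 45.7, 42.9 and 52.6 CPM in separately housed Tcra-/- mice, against 33.2, 23.0 and 33.4 CPM in WT mice. Rag1-/- mice had 33.8, 23.9 and 28.9 CPM, and co-housed Tcra-/- mice 31.8, 30.8 and 40.0 CPM. Each separately housed library was above all others, and the log2 fold change over WT was 0.66 (SE 0.16, adjusted p = 0.00988). The call was lost without TCRaSepxT4 (adjusted p = 0.0494), TCRaSepxT2 (0.0233), TCRaSepxT3 (0.0154), WTB6x3159 (0.015), WTB6x3160 (0.0259), WTB6x3167 (0.0142), TCRaCox3155 (0.0132), TCRaCox3156 (0.0129) or RAG1x3168 (0.0154), and with upper quartile factors (0.0144) or no count filter (0.0147).

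Acta2 stood at 621, 603 and 641 CPM in separately housed Tcra-/- mice, against 470, 464 and 475 CPM in WT mice. It stood at 508, 430 and 423 CPM in Rag1-/- mice and 402, 433 and 602 CPM in co-housed Tcra-/- mice. The separately housed and WT groups were apart, and the highest co-housed library, TCRaCox3157, was just under the lowest separately housed one. The difference from WT was 0.40 (SE 0.12) on the log2 scale and was not called by edgeR (adjusted p = 0.0232), though it was by DESeq2, and by edgeR without TCRaCox3157 and with the 6 libraries compared. Acta2 and Actg2 encode near-identical proteins, so reads may have been divided between them in a way the counts cannot show. Their RPKM ratio, Actg2 over Acta2, stayed between 0.520 and 0.784 in all libraries.

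The 10 genes had a median log2 fold change of 0.42 in separately housed Tcra-/- over WT mice, with all 10 values positive, and of -0.38 in co-housed over separately housed mice, with all 10 negative. The medians over all genes were 0.00 and -0.01. In Rag1-/- and in co-housed Tcra-/- against WT mice, edgeR called 0 of the 10, with 1 and 0 at an unadjusted p under 0.05 and 0 called by DESeq2 in each, and the medians were -0.10 and 0.08. The remaining members, which are the myosin heavy chain gene Myh11, the intermediate filament gene Des, the actin-binding genes Cnn1 and Smtn, Actg2 and Myocd, were called in no comparison by edgeR with all 12 libraries or by DESeq2. Without TCRaCox3157 edgeR called Acta2, Actg2, Myh11, Des, Cnn1 and Smtn lower in co-housed than in separately housed Tcra-/- mice. With the 6 libraries compared it called Actg2, Myh11, Des and Cnn1 higher in separately housed Tcra-/- than in WT mice, and without TCRaCox3157 the first pair of these.

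In a wider list of 17 contractile and muscle genes, the share called lay near or below that of all genes. Their median log2 fold change was -0.35 in co-housed over separately housed Tcra-/- mice, with 16 of 17 negative. It was 0.37 in separately housed Tcra-/- over WT mice, with 15 of 17 positive. An unadjusted p under 0.05 was reached by 10 and 11 of them, and the share of all genes at that threshold is not given here. The medians in Rag1-/- and in co-housed Tcra-/- over WT mice were -0.14 and 0.02. In co-housed against separately housed Tcra-/- mice 3 of 17 were lower (17.6%, against 17.7% of all genes): Myl9, the myosin regulatory light chain, at -0.52 (adjusted p = 0.00109), Tpm2, a tropomyosin, at -0.60 (adjusted p = 0.00327), and Kcnmb1, a potassium channel subunit, at -0.54 (adjusted p = 0.00763). In separately housed Tcra-/- over WT mice 1 of 17 was higher (5.88%, against 6.06%), Kcnmb1 at 0.66 (adjusted p = 0.00509). Itga8, an integrin gene, was the 1 of 17 (5.88%, against 11.5%) that was lower in Rag1-/- than in WT mice, at -0.90 (adjusted p = 0.00211). In co-housed Tcra-/- against WT mice edgeR called 0 of 17, with 1 at an unadjusted p under 0.05, and DESeq2 called 0. Srf, the serum response factor gene of that list, was lowest in separately housed Tcra-/- mice, at 52.2, 49.7 and 51.4 CPM. It stood at 69.2, 69.6 and 67.6 CPM in Rag1-/-, 60.9, 53.7 and 66.4 CPM in co-housed Tcra-/- and 57.7, 58.3 and 57.8 CPM in WT mice. DESeq2 called it in Rag1-/- against WT mice and between the housing groups, and edgeR in none of the 4 comparisons.

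Within groups, the muscle genes moved by library. In TCRaCox3157 all 10 were above their group's mean of log2 CPM, and in RAG1x3163 likewise all 10, while 0 of 10 were in TCRaCox3155 and RAG1x3164. The median SD of log2 CPM among mice of a group was 0.22 for these genes, against 0.16 for all genes tested. The 6 markers of interstitial cells of Cajal, the pacemaker cells of the muscle layer, summed to 96.0 to 104 CPM in separately housed Tcra-/- mice, against 61.9 to 77.0 CPM in WT mice, and were 62.7 to 73.9 CPM in Rag1-/- and 67.5 to 88.8 CPM in co-housed Tcra-/- mice. The 6 pericyte markers summed to 178 to 204 CPM in separately housed Tcra-/- mice, against 122 to 165 CPM in WT mice, and to 115 to 148 CPM in Rag1-/- and 124 to 180 CPM in co-housed Tcra-/- mice, where TCRaCox3157 lay above the lowest separately housed library. Their part in the muscle differences was not tested.

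**Figure D3:**
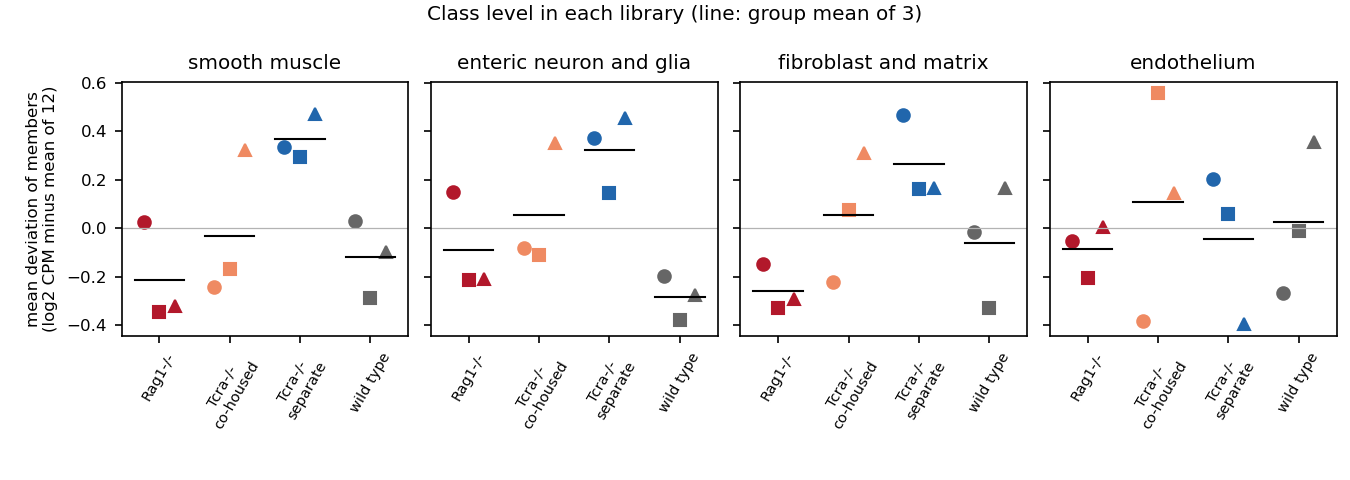
Mean deviation of each class in each library from its own mean of 12 libraries, in log2 CPM, with a line at the mean of 3 mice and markers for single mice. For smooth muscle the 3 separately housed Tcra-/- libraries lie at 0.29 to 0.47, and TCRaCox3157 at 0.32 is apart from the other co-housed libraries at -0.25 and -0.17.

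The enteric genes divided. Ret was highest in Rag1-/- and co-housed Tcra-/- mice, whereas Prph, Elavl4, Sox10 and Uchl1 were highest in separately housed Tcra-/- mice. Ret is the receptor tyrosine kinase for ligands of the GDNF family, needed for the enteric nervous system to form, and in mice it is also known from some innate lymphoid cells.

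Ret (chr6:118101766-118147762, mm9, minus strand, 19 merged exons) stood at 32.6, 31.8 and 26.3 CPM in Rag1-/- mice, against 9.76, 7.32 and 8.43 CPM in WT mice. It stood at 26.2, 16.7 and 32.4 CPM in co-housed Tcra-/- mice and 13.7, 13.7 and 16.7 CPM in separately housed Tcra-/- mice. All 9 mutant libraries were above all 3 WT libraries, and TCRaCox3156 and TCRaSepxT4 met at the border of the housing groups. Ret rose 3.55-fold in Rag1-/- over WT mice (log2 fold change 1.83, SE 0.21, adjusted p = 2.67e-05) and 2.95-fold in co-housed Tcra-/- over WT mice (log2 fold change 1.56, SE 0.21, adjusted p = 0.000133). These 2 calls held under every alternative run.

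Between the housing groups Ret was 1.71-fold higher in co-housed mice (log2 fold change 0.77, SE 0.20, adjusted p = 0.00629). That call was lost without TCRaCox3155 or TCRaCox3157 (adjusted p = 0.0205 each), TCRaSepxT2 (0.0267), TCRaSepxT3 (0.0269) or WTB6x3167 (0.0108), and with the 6 libraries compared (0.0235). In separately housed Tcra-/- over WT mice the log2 fold change of 0.79 (SE 0.21) was not called by edgeR (adjusted p = 0.0153) but was by DESeq2, and the groups did not overlap.

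Prph encodes peripherin, an intermediate filament of peripheral neurons (chr15:98885605-98889409, mm9, plus strand). It stood at 7.50, 6.83 and 9.71 CPM in separately housed Tcra-/- mice, against 4.61, 4.53 and 4.20 CPM in WT mice. Rag1-/- mice had 5.71, 5.05 and 4.29 CPM and co-housed Tcra-/- mice 4.20, 5.65 and 6.44 CPM. Every separately housed library was above all others, with TCRaSepxT4 highest, and Prph rose over WT by a log2 fold change of 0.85 (SE 0.18, adjusted p = 0.00233). Without TCRaSepxT4 the adjusted p was 0.0186 and without WTB6x3167 it was 0.0122.

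Uchl1 (chr5:67067360-67078473, mm9, plus strand) stood at 3.63, 3.43 and 5.08 CPM in co-housed Tcra-/- mice, against 5.60, 5.89 and 7.50 CPM in separately housed Tcra-/- mice. Rag1-/- mice had 4.19, 4.08 and 3.93 CPM and WT mice 4.75, 4.92 and 3.96 CPM. The housing groups did not overlap, and Uchl1 was lower in co-housed mice by a log2 fold change of -0.65 (SE 0.17, adjusted p = 0.00522). The call was lost without TCRaCox3155 (adjusted p = 0.0249), TCRaCox3156 (0.0327) or TCRaSepxT4 (0.0355), and with the 6 libraries compared (0.016).

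Vip differed in pattern. It stood at 36.1, 43.7 and 36.2 CPM in co-housed Tcra-/- mice, against 33.9, 30.3 and 18.8 CPM in separately housed Tcra-/- mice. Rag1-/- mice had 40.8, 35.9 and 30.2 CPM and WT mice 33.3, 27.1 and 32.0 CPM. The housing groups did not overlap, with TCRaSepxT4 lowest of all 12 libraries, and the difference of 0.48 (SE 0.19) was not called (adjusted p = 0.0514).

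Of the other enteric members, edgeR called 0 in the 4 comparisons with all 12 libraries, and DESeq2 called Elavl4 in co-housed against separately housed Tcra-/- mice and Elavl4 and Sox10 in separately housed Tcra-/- against WT mice. Elavl4, a neuronal RNA-binding protein gene, ranged over 1.66 to 4.99 CPM and differed by 0.88 in log2 (SE 0.24, adjusted p = 0.0154) in separately housed Tcra-/- over WT mice, a difference that edgeR called without TCRaCox3157 and with the 6 libraries compared. Sox10 ranged over 0.403 to 1.53 CPM and differed by 1.09 (SE 0.31, adjusted p = 0.0187) in that comparison. S100b, a calcium-binding protein of glia, ranged over 0.806 to 2.19 CPM and Nos1 over 0.317 to 1.83 CPM. Nos1 rested on 14 to 74 reads per library.

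The median log2 fold change of the 8 genes was 0.75 in separately housed Tcra-/- over WT mice, 0.31 in co-housed Tcra-/- over WT mice, -0.60 in co-housed over separately housed mice and 0.02 in Rag1-/- over WT mice. The RPKM ratio of Ret to Prph set Ret against another enteric neuron gene in the same library. It was 1.45, 1.60 and 1.56 in Rag1-/- mice, against 0.538, 0.410 and 0.509 in WT mice. It was 1.59, 0.752 and 1.28 in co-housed Tcra-/- mice, against 0.464, 0.509 and 0.437 in separately housed Tcra-/- mice. So the ratio in Rag1-/- and co-housed mice lay above that in every separately housed and WT mouse.

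Of 23 further enteric genes, 22 were tested. Tac1, the precursor of the neuropeptide substance P, rose in Rag1-/- over WT mice by 2.42 in log2 (adjusted p = 1.38e-08), in co-housed Tcra-/- over WT mice by 1.75 (adjusted p = 5e-07) and in co-housed over separately housed mice by 2.18 (adjusted p = 1.84e-08). It stood at 58.8, 68.9 and 62.9 CPM in Rag1-/- mice, 47.9, 31.5 and 40.5 CPM in co-housed Tcra-/- mice, 9.57, 8.55 and 8.33 CPM in separately housed Tcra-/- mice, and 10.4, 11.6 and 13.6 CPM in WT mice. Rag1-/- and co-housed libraries were thus all above the rest, as for Ret, save that for Ret the housing groups met. The median log2 fold change of the 22 genes was 0.09 in Rag1-/- over WT mice. It was 0.21 in co-housed Tcra-/- over WT mice and -0.38 in co-housed over separately housed mice. Which cells gave the Tac1 reads was not tested.

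Other genes of that list were called besides Tac1. In co-housed against separately housed mice Snap25, a synaptic vesicle fusion protein gene, was lower by a log2 fold change of -0.92 (adjusted p = 0.000886) and Erbb3, a neuregulin receptor of glia that is also made by epithelium, by -1.38 (adjusted p = 7.93e-06), so 2 of 22 were lower and 1 higher (9.09% and 4.55%, against 17.7% and 21.1% of all genes). Erbb3 was higher in separately housed Tcra-/- than in WT mice, at 0.78 (adjusted p = 0.00226). In co-housed Tcra-/- against WT mice Erbb3 was lower at -0.60 (adjusted p = 0.00895) and Tac1 was the 1 gene that was higher. Each made 4.55% of the 22, against 9.19% of all genes lower and 9.34% higher. Tac1 alone was called in Rag1-/- against WT mice (4.55% higher and 0 lower, against 9.42% and 11.5% of all genes).

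**Figure D4:**
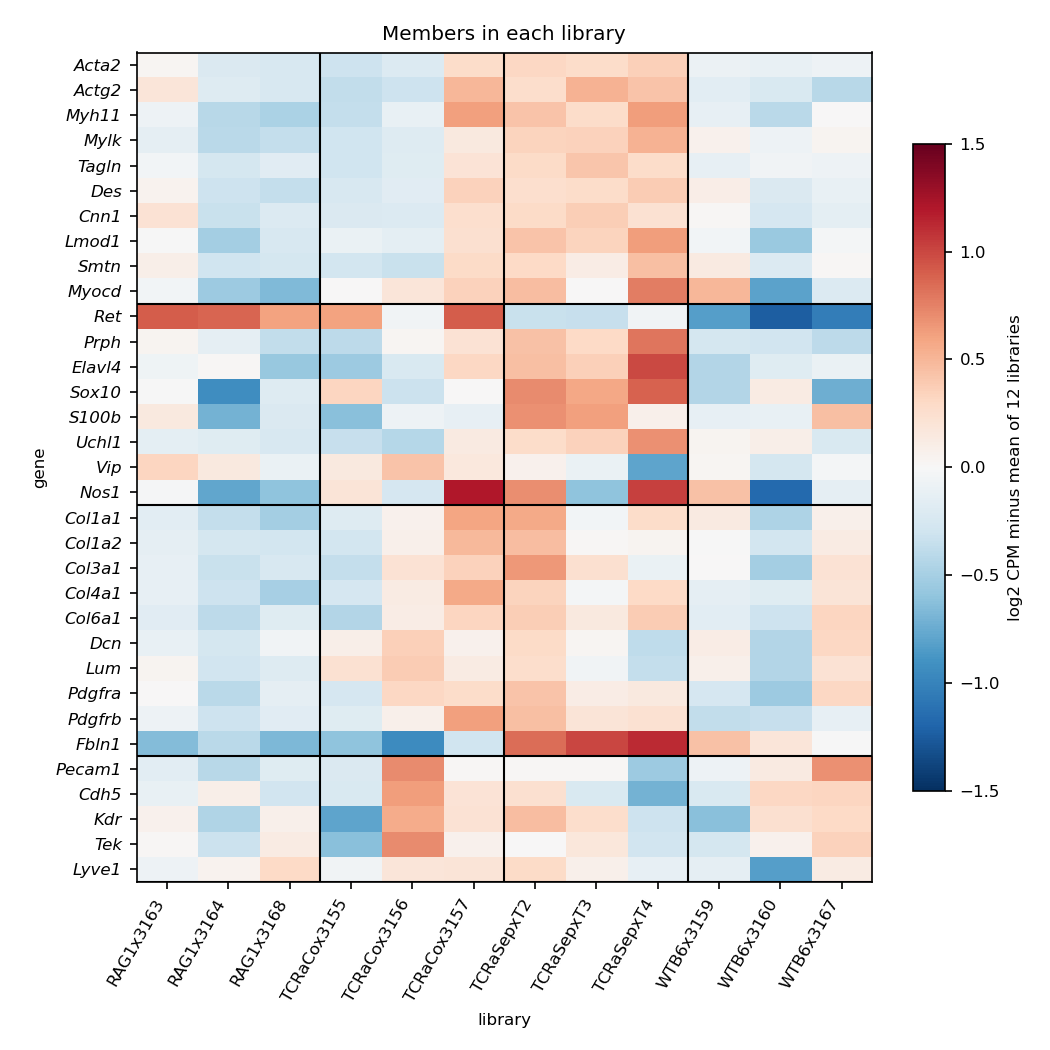
Deviation of each gene in each library from its mean of 12 libraries, in log2 CPM, with red for higher and blue for lower, the 4 groups set apart by vertical lines and the 4 classes by horizontal lines. Ret is red in the Rag1-/- columns and blue in the WT columns, Fbln1 is red in the separately housed Tcra-/- columns, and the endothelial rows are red in TCRaCox3156.

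Among fibroblast and matrix genes edgeR with all 12 libraries called 1 member, Fbln1, and called it in all 4 comparisons. Fbln1 encodes fibulin-1, a glycoprotein of basement membranes and elastic fibres (chr15:85036438-85116724, mm9, plus strand, 17 merged exons). It stood at 40.0, 47.2 and 39.3 CPM in Rag1-/- mice, 41.0, 32.4 and 50.7 CPM in co-housed Tcra-/- mice, 112, 125 and 136 CPM in separately housed Tcra-/- mice, and 85.0, 71.0 and 62.1 CPM in WT mice. The separately housed group was highest, WT in between, and Rag1-/- and co-housed mice lowest, with overlap only between the lowest 2 groups.

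Fbln1 was 3.01-fold lower in co-housed than in separately housed Tcra-/- mice (log2 fold change -1.59, SE 0.16, adjusted p = 3.69e-06) and 1.76-fold lower in co-housed Tcra-/- than in WT mice (-0.81, SE 0.15, adjusted p = 0.00172), and these 2 calls held under every alternative run. It was 1.72-fold lower in Rag1-/- than in WT mice (-0.79, SE 0.15, adjusted p = 0.00186), a call lost without RAG1x3163 (adjusted p = 0.0111) or RAG1x3168 (0.0103). It was 1.71-fold higher in separately housed Tcra-/- than in WT mice (0.78, SE 0.15, adjusted p = 0.00295), a call lost without TCRaSepxT3 (0.0108), TCRaSepxT4 (0.0177), WTB6x3160 (0.0163) or WTB6x3167 (0.0129).

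Dcn, the most abundant gene of the class, did not follow Fbln1. It stood at 155, 139 and 161 CPM in Rag1-/- mice, 178, 214 and 174 CPM in co-housed Tcra-/- mice, 205, 170 and 129 CPM in separately housed Tcra-/- mice, and 180, 124 and 207 CPM in WT mice. All groups overlapped except Rag1-/- and co-housed mice. The difference between co-housed and separately housed mice was 0.17 (SE 0.20, adjusted p = 0.504). The RPKM ratio of Fbln1 to Dcn was 0.143, 0.0940 and 0.181 in co-housed Tcra-/- mice, against 0.340, 0.456 and 0.657 in separately housed Tcra-/- mice. It was 0.160, 0.210 and 0.152 in Rag1-/- mice, against 0.293, 0.356 and 0.186 in WT mice.

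**Figure D5:**
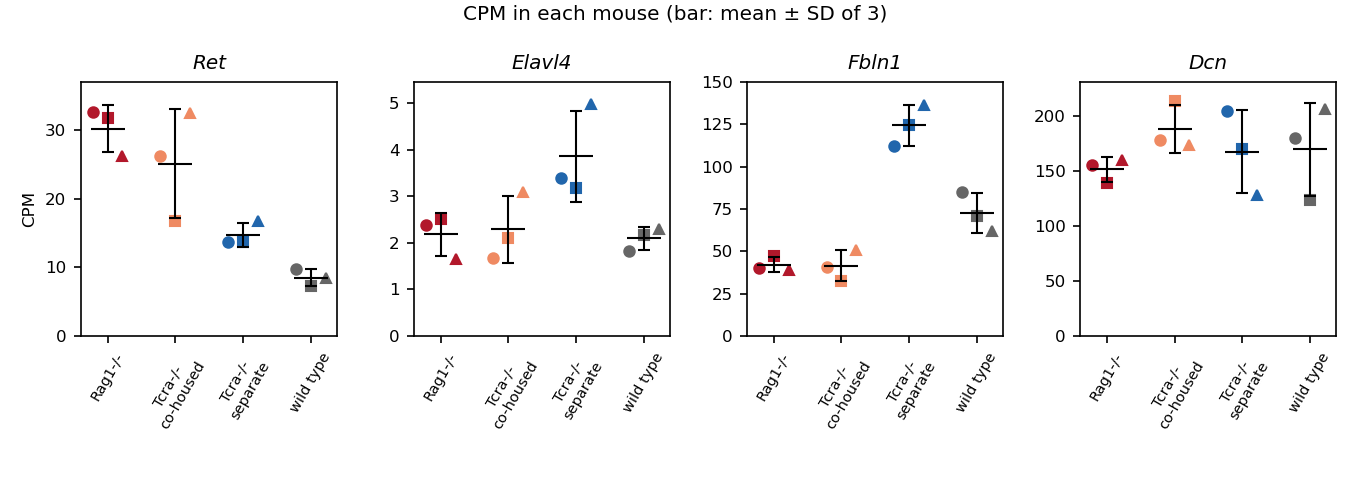
CPM of Ret, Elavl4, Fbln1 and Dcn in each mouse, with bars at the mean and SD of 3 mice. Ret and Fbln1 separate the groups, with Ret at 30.2 in Rag1-/- and 8.5 in WT mice on average and Fbln1 at 41.4 in co-housed and 124 in separately housed Tcra-/- mice, while the points of Dcn span 129 to 205 CPM within separately housed Tcra-/- mice.

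Col3a1 stood at 127, 111 and 118 CPM in Rag1-/- mice, 108, 161 and 177 CPM in co-housed Tcra-/- mice, 218, 164 and 130 CPM in separately housed Tcra-/- mice, and 140, 98.1 and 162 CPM in WT mice. Its groups overlapped in all 4 comparisons. Separately housed Tcra-/- and WT mice differed by 0.36 in log2 (SE 0.25, adjusted p = 0.339). The fibrillar collagens Col1a1 and Col1a2, the basement membrane collagen Col4a1, Col6a1, the proteoglycan Lum and the growth factor receptor Pdgfra were called in no comparison, and their highest library was at most 2.16 times their lowest. Pdgfrb, a receptor of pericytes and fibroblasts, ranged over 11.5 to 22.8 CPM. Its nearest differences were 0.57 (SE 0.16, adjusted p = 0.0169) in separately housed Tcra-/- over WT mice and 0.49 (SE 0.16, adjusted p = 0.0327) in co-housed Tcra-/- over WT mice. The first was called by DESeq2, and by edgeR with the 6 libraries compared, without TCRaCox3155 and without TCRaCox3157, and the other by edgeR without TCRaCox3155.

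The 10 fibroblast and matrix genes summed to 514 to 577 CPM in Rag1-/- mice, 563 to 767 CPM in co-housed Tcra-/- mice, 698 to 893 CPM in separately housed Tcra-/- mice and 508 to 741 CPM in WT mice. Their median log2 fold change was 0.34 in separately housed Tcra-/- over WT mice, 0.20 in co-housed Tcra-/- over WT mice, -0.17 in Rag1-/- over WT mice, and -0.09 in co-housed over separately housed mice. The last became -0.31 without TCRaCox3157. In WTB6x3160, 0 of the 10 genes were above the WT mean, and in WTB6x3167 and TCRaSepxT2, 9 of 10 were above their group's mean.

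Of 27 further fibroblast genes, 1 was higher and 1 lower in co-housed than in separately housed Tcra-/- mice (3.7% each, against 21.1% and 17.7% of all genes). Bmp4, a growth factor of the mesenchyme beneath the epithelium, was lower by a log2 fold change of -1.47 (SE 0.22, adjusted p = 5.87e-05). Bmp4 stood at 4.51, 5.58 and 8.07 CPM in co-housed Tcra-/- mice, against 17.7, 15.9 and 16.7 CPM in separately housed Tcra-/- mice, 5.29, 3.70 and 5.66 CPM in Rag1-/- mice, and 4.54, 4.71 and 7.24 CPM in WT mice. The separately housed mice stood above all others, and Bmp4 rose over WT by 1.61 in log2 (SE 0.22, adjusted p = 0.000108). The other called gene, Thy1, a surface protein of fibroblasts that T cells also carry, was higher by 0.97 in co-housed mice (adjusted p = 0.00022).

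In separately housed Tcra-/- against WT mice 2 of the 27 were higher (7.41%, against 6.06% of all genes), Bmp4 and the metalloproteinase inhibitor gene Timp3 (0.55, adjusted p = 0.00306), and Thy1 was lower (-0.88, adjusted p = 0.00159). Against WT, Rag1-/- mice had 3 of 27 lower (11.1%, against 11.5% of all genes): Thy1 (-0.88, adjusted p = 0.00103), the intermediate filament gene Vim (-0.43, adjusted p = 0.00112) and the proteoglycan gene Bgn (-0.42, adjusted p = 0.00914). In co-housed Tcra-/- against WT mice edgeR called 0 of 27, with 3 at an unadjusted p under 0.05, and DESeq2 called 0. The 14 leukocyte markers summed to 126 to 135 CPM in Rag1-/- mice, 294 to 446 CPM in co-housed Tcra-/- mice, 156 to 190 CPM in separately housed Tcra-/- mice and 465 to 525 CPM in WT mice. Their part in the differences of Thy1, Vim, Ret and Icam2 was not tested.

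No member of the endothelial class was called. Of the 5, edgeR called 0 in each of the 4 comparisons, with 0 at an unadjusted p under 0.05 in each, and DESeq2 called 0 in each. Over any of the 4 groups edgeR called 0 of the 5, against 41.7% of all genes. The class holds 5 genes with a median SD within groups of 0.37 in log2 CPM, against 0.16 for all genes tested. A difference in endothelium could therefore have been missed. Pecam1 stood at 12.1, 10.05 and 11.8 CPM in Rag1-/- mice, 11.5, 22.0 and 13.6 CPM in co-housed Tcra-/- mice, 13.6, 13.6 and 9.19 CPM in separately housed Tcra-/- mice, and 12.7, 14.7 and 21.6 CPM in WT mice. Rag1-/- and WT mice did not overlap, and the log2 difference was -0.53 (SE 0.26, adjusted p = 0.15).

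Lyve1 stood at 11.7, 12.8 and 15.1 CPM in Rag1-/- mice, 11.9, 14.0 and 14.2 CPM in co-housed Tcra-/- mice, 15.1, 13 and 11.3 CPM in separately housed Tcra-/- mice, and 11.2, 6.93 and 13.4 CPM in WT mice. The groups overlapped in every comparison, and WTB6x3160 was the lowest library. Endothelial levels also differed among mice of a group. In TCRaCox3156, TCRaSepxT2 and WTB6x3167 all 5 genes were above their group's mean, and in TCRaCox3155 and TCRaSepxT4 0 of 5 were. The median SD of log2 CPM among mice of a group was 0.37, the widest of the 4 classes.

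The medians of the 5 endothelial log2 fold changes were -0.12 in Rag1-/- over WT mice, 0.19 in co-housed over separately housed Tcra-/- mice, -0.10 in separately housed Tcra-/- over WT mice and 0.09 in co-housed Tcra-/- over WT mice. Of 22 further endothelial genes 21 were tested, and 1 was called in 1 comparison (4.76%, against 11.5% of all genes called lower): Icam2, an adhesion molecule shared by endothelium and leukocytes, was lower in Rag1-/- than in WT mice (log2 fold change -1.30, SE 0.30, adjusted p = 0.00354). It stood at 1.4, 0.45 and 1.3 CPM in Rag1-/- mice, against 2.41, 2.27 and 3.09 CPM in WT mice. In the other 3 comparisons edgeR called 0 of 21, with 5, 2 and 2 at an unadjusted p under 0.05 in co-housed over separately housed Tcra-/-, separately housed Tcra-/- over WT and co-housed Tcra-/- over WT mice. DESeq2 called Icam2 in the first of these and 0 genes in the others.

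Markers of tissue that can be attached to an ileal piece were read beside these classes. The 9 adipocyte genes summed to 202 to 402 CPM in separately housed Tcra-/- mice, against 109 to 232 CPM in WT mice, and to 34.8 to 57.9 CPM in Rag1-/- and 42.8 to 56.0 CPM in co-housed Tcra-/- mice. Most of the gap came from Pck1, a gluconeogenic enzyme gene, and Cidec, a lipid droplet gene. Without both, a split made after seeing the values, the other 7 summed to 32.6 to 41.8 CPM in separately housed Tcra-/- mice, against 25.2 to 28.6 CPM in WT mice, and to 18.8 to 23.0 CPM in Rag1-/- and 21.9 to 35.1 CPM in co-housed Tcra-/- mice. The 6 mesothelial genes summed to 36.0 to 39.3 CPM in separately housed Tcra-/- mice, against 26.1 to 27.4 CPM in WT mice, and to 31.1 to 36.2 CPM in Rag1-/- and 27.1 to 37.9 CPM in co-housed Tcra-/- mice. Upk1b, the most abundant of them, averaged 22.1 CPM in Rag1-/-, 17.8 in co-housed Tcra-/-, 16.8 in separately housed Tcra-/- and 13.8 in WT mice. In Rag1-/- against WT mice Msln, Upk3b and Wt1 averaged lower (2.56, 4.19 and 0.329 against 2.97, 5.15 and 0.442 CPM). Lrrn4 and Gpm6a averaged higher there (2.30 and 2.95 against 1.81 and 2.76 CPM). The 9 pancreatic acinar genes stayed at 4.27 to 7.15 CPM in all libraries, and 8 skeletal muscle genes at 24.8 to 78.7 CPM, highest in WT mice. These sums rested on few genes. Cela1 had 2598 reads over all libraries, and no other acinar gene had more than 88. Acta1 and Ckm had 16645 and 5337 reads, and no other skeletal muscle gene had more than 201, with 0 for Myh4 and Myod1. Adipocyte, mesothelial, pericyte, interstitial cell, smooth muscle, and fibroblast and matrix sums each had their highest median and highest library in separately housed Tcra-/- mice. The sums of the enteric and of the endothelial members did not. The part of these tissues in the differences of single members was not tested.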

How the data were processed

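Terminal ileum RNA of 12 mice was sequenced in 4 groups of 3. Per the labels' protocols, RNA was isolated with Trizol and libraries were made with a stranded Illumina mRNA kit. The submitters' processing notes name the build mm9, the aligners Bowtie2 2.2.2.0 and TopHat2 2.0.11, the counter featureCounts (Subread 1.4.5-p1) and DESeq2 1.12.3. The authors deposited raw, unnormalized counts per gene. Annotation, strand setting and multi-mapping rule were not given in the sources used here. Overlapping genes on either strand and near-identical paralogs may therefore share reads.

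From these counts, edgeR 4.0.16 in R 4.3.3 was run on all 12 libraries: filterByExpr, trimmed mean of M-values (TMM) factors of 0.926 to 1.07, and a robust quasi-likelihood model with 1 term per group and 8 residual degrees of freedom, tested two-sided. The method was also run on simulated data with changes larger than most of those reported here. That run does not show its power for the smaller differences. Adjusted p-values are Benjamini-Hochberg over 15866 genes, and 0.01 was the threshold. Standard errors were obtained by dividing a log2 fold change by the square root of its F. CPM values use TMM library sizes, and RPKM divides them by the merged exon length in the deposited table. Deviations use log2 CPM with a prior count of 2. No pair of libraries of a group agreed within counting noise (chi-square over degrees of freedom 19.4 to 98.1). Depth was 37061276 to 50581616 counts per library.

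The members and all lists were chosen with earlier results of these data known. Values of each library are given for members called in any test and for the 2 most abundant per class. Called genes of the further lists are named up to 4 per class and comparison, and some results on those lists are not reported here. Alternatives were other scalings, filters, DESeq2 1.42.0, the 6 compared libraries alone, a threshold of 0.05 and leaving out each library. CArG boxes were searched in RefSeq promoters of GRCm38.p6, which held 20 of the 33 genes. Coordinates of genes are mm9, from the deposited table.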

Additional observations from a re-analysis of the deposited data

How the results depend on the processing

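No paired analysis was possible because the labels give no replicate number that groups share. No called value changed sign under any alternative run. The number of the 33 genes called in co-housed against separately housed Tcra-/- mice, 5 as reported, was 9 by library size alone, 9 by DESeq2, 3 with the 6 libraries compared and 10 at a threshold of 0.05, and 2 to 12 when 1 library was left out. In separately housed Tcra-/- against WT mice, 4 as reported, it was 2 with upper quartile factors, 10 by DESeq2, 13 with the 6 libraries compared and 11 at 0.05, and 0 to 11 with 1 library left out. Over any of the 4 groups, 7 as reported, it was 11 by library size alone, 11 by DESeq2 and 11 at 0.05, and 3 to 14 with 1 library left out. In Rag1-/- against WT mice, 2 as reported, it was 1 to 3 with 1 library left out, and in co-housed Tcra-/- against WT mice 2 to 3. The 3 in Rag1-/- against WT mice, without TCRaCox3157 or by library size alone, added Mylk. With the 6 libraries compared, 2904 of all genes were higher and 2496 lower between the housing groups, against 3347 and 2809 as reported. In separately housed Tcra-/- against WT mice these were 996 and 1226, and 874 and 1274 with upper quartile factors, against 961 and 1221. Library size alone gave 2480 and 3695 between the housing groups. Counts over all genes by DESeq2 or at 0.05 are not given here. The cause of these changes was not tested. Library size alone moved the median log2 fold change of all genes to -0.19 in Rag1-/- over WT mice, and to -0.12 in co-housed Tcra-/- mice over either group, and the medians of the 33 genes were then -0.29 in Rag1-/- over WT, -0.37 in co-housed over separately housed and 0.04 in co-housed Tcra-/- over WT mice. The 16 class medians moved by less than the spread between replicates in 239 recomputed values and by more in 1, the fibroblast median given in the report. That spread was the SD of the class mean within groups. It was 0.21 for smooth muscle, 0.19 for enteric, 0.21 for fibroblast and 0.33 for endothelial genes. All 4 endothelial medians are smaller than their spread, so this measure cannot show that their sign held. Calls on genes with few reads are limited by counting: Sox10, S100b, Nos1 and Elavl4 had at most 228 reads in a library.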
